A study of Homo sapiens with 6 samples.

Results

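The genes described here are 48 genes of G2 phase and mitosis, chosen by name for their known function, out of the 20030 genes in the deposited table. The choice was made with earlier results of these data known, so their counts are not those of an unselected list. They were followed in RNA sequencing libraries of cells labelled as the multiple myeloma cell line NCI-H929, with 3 libraries of cells depleted of IGF2BP1 (IGF2BP1-KD) and 3 of a negative control (IGF2BP1-NC). IGF2BP1 is an RNA-binding protein that reads N6-methyladenosine on messenger RNA. The depletion used a lentiviral short hairpin RNA, driven by the human U6 promoter, in stable lines selected with puromycin. The methods list 2 target sequences for IGF2BP1, and which of them the IGF2BP1-KD libraries carry is not named. No source used here says that the 3 libraries of a group came from separate cultures, so the p-values measure the spread between these libraries, which may be technical.

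Cells enter mitosis when CDK1, bound to cyclin A or B, is switched on by CDC25 phosphatases, and Polo-like and Aurora kinases then drive spindle assembly. Kinetochores attach chromosomes to microtubules under the watch of the spindle checkpoint, and the anaphase-promoting complex (APC/C) with CDC20 ends mitosis by destroying securin and cyclin B. Kinesins and cytokinesis proteins separate the daughter cells. Most of these genes are transcribed late in the cycle, through a promoter element named CHR (cell cycle genes homology region) that is bound by the DREAM and MuvB complexes, together with CCAAT boxes bound by NF-Y.

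All 48 genes passed the filter on low counts and were among 11994 genes tested. In IGF2BP1-KD cells 21 of the 48 (43.8%) were higher and 0 were lower at an adjusted p under 0.05 in the quasi-likelihood test of edgeR (Benjamini-Hochberg adjustment over all tested genes), against 13.7% of all tested genes called higher and 14.5% called lower. The count fell to 12 without IGF2BP1-KD library 2 and was 29 without IGF2BP1-NC library 1. DESeq2 and limma-voom likewise called 0 of them lower, and 0 were lower at an unadjusted p under 0.05. The rises were small. Across the 48 genes log2 fold changes ran from -0.18 to 0.59 with a median of 0.19, the median of all tested genes was -0.005, and no gene reached a 2-fold change. The estimate was positive for 43 genes and negative for 5. For 25 genes (52.1%) every IGF2BP1-KD library lay above every IGF2BP1-NC library in CPM (counts scaled to library size), compared with 22.4% of tested genes, and for 0 genes every IGF2BP1-KD library lay below, compared with 23.2%. All 21 called genes were among the 25, so a separation stated below for a called gene goes with its call and is not separate support. The members are well expressed, with a median of 39.3 FPKM (fragments counted, divided by gene length and library total) against 8.22 for all tested genes. Among the 6296 genes whose mean log2 CPM was 5 or more, a limit chosen after the values were seen, 13.1% were higher and 17.1% lower.

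The knockdown was visible in the targeted gene. IGF2BP1 (chromosome 17) stood at 48.1, 43.7 and 49.1 FPKM in IGF2BP1-NC and 13.5, 12.9 and 12.8 FPKM in IGF2BP1-KD (log2 fold change -1.85 ± 0.07 SE, adjusted p = 4.81e-08). Total counts per library were 16885449 to 18112179, where 3 counts correspond to 0.166 to 0.178 CPM on these totals, without the TMM factor. Most markers of the labelled cell type were low or at the count floor. Of 14 plasma cell markers, 7 had at most 3 counts in every library (CD38, TNFRSF17, IRF4, POU2AF1, CD27, FCRL5 and TNFRSF13B), while 3 were above 1 CPM in every library. XBP1, the secretory cell factor, was the most abundant at 83.5, 42.1 and 38.4 FPKM in IGF2BP1-NC and 38.5, 40.8 and 36.5 FPKM in IGF2BP1-KD. SDC1, which encodes CD138, was at 0.547, 0.621 and 0.583 FPKM in IGF2BP1-NC and 0.605, 0.641 and 0.963 FPKM in IGF2BP1-KD, and SLAMF7 was called higher in IGF2BP1-KD (log2 fold change 4.37 ± 0.80 SE, adjusted p = 0.00878). Over the libraries the summed list lay at 78.3 to 161 CPM in IGF2BP1-NC and 81.6 to 86.6 CPM in IGF2BP1-KD. All 12 erythroid markers were above 1 CPM in every library, with sums of 7330 to 8620 CPM and 7660 to 8500 CPM. The 8 myeloid markers summed to 27.4 to 38.0 CPM in IGF2BP1-NC and 198, 223 and 496 CPM in IGF2BP1-KD. Only 3 of the 8 were above 1 CPM in every library, although none was at 3 counts or fewer in every library. PRG2 and MS4A3 held most of the sum, with 4026 and 4461 counts in IGF2BP1-KD library 3. Others were near the floor in IGF2BP1-NC, such as MPO (2, 5 and 8 counts) and ELANE (0, 2 and 2 counts). Their part in the results on mitosis genes was not tested. In bulk samples a change in the share of cells in mitosis and a change in RNA per cell cannot be told apart.

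Promoter sequences are shown for 6 genes with a called rise, the CHR carriers with the lowest adjusted p. A CHR chose these 6, so its presence in them is not a result. The 48 genes were chosen for functions in which the CHR is known, so its share among them is not independent of that choice. The windows are RefSeq's, on GRCh38.p14, from 250 bases before to 50 bases after the annotated start, and 41 of the 48 genes had one. AURKA, BUB3, TTK, UBE2C, TPX2, RACGAP1 and CDCA2 are named only. Each is written 5′ to 3′ along the gene, and capitals mark a CHR (TTTGAA or TTCGAA) or a CCAAT box (CCAAT), read on both strands, so that TTCAAA and ATTGG also count. In HMMR the letters of 2 CCAAT boxes overlap each other, and 2 CHR matches stand side by side.
KIF4A (chrX:70289854-70290153, plus strand): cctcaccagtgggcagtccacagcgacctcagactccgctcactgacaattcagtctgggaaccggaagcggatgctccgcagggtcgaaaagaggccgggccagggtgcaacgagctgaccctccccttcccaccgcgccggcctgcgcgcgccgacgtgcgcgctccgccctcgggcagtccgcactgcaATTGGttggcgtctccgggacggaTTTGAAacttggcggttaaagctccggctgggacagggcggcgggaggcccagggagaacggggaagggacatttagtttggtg
GTSE1 (chr22:46296620-46296919, plus strand): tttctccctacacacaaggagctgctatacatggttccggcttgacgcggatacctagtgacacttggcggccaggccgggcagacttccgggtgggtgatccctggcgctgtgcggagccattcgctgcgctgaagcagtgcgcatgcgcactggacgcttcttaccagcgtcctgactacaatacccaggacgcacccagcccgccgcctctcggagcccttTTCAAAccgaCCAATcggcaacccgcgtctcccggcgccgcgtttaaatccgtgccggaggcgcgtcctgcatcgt
HMMR (chr5:163460382-163460681, plus strand): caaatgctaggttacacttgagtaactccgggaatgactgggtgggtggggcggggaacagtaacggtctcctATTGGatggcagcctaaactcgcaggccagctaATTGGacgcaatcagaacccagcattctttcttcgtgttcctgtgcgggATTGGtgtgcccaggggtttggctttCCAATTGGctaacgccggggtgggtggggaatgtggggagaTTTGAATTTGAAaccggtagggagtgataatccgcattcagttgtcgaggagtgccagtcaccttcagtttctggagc
PLK1 (chr16:23678639-23678938, plus strand): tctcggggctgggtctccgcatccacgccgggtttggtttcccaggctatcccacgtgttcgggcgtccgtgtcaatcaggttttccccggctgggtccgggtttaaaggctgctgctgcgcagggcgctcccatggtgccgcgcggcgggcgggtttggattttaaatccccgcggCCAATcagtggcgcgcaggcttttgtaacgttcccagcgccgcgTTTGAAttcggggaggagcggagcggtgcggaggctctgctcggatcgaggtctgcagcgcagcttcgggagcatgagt
PRC1 (chr15:90994486-90994785, minus strand): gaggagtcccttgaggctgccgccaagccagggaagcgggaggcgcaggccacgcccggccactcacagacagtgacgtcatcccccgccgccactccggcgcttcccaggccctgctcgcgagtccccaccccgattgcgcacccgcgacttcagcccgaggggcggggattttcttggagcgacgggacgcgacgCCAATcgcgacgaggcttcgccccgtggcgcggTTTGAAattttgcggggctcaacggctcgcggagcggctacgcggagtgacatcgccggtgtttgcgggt
CENPA (chr2:26785806-26786105, plus strand): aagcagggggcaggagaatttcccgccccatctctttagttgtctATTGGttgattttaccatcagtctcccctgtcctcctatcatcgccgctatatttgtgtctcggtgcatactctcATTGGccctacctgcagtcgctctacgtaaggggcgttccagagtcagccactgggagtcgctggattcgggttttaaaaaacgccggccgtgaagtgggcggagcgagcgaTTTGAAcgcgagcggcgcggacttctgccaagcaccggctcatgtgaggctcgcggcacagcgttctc

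A CHR was found in 29 of the 41 windows (70.7%), a CCAAT box in 31 (75.6%) and both in 25 (61.0%). Over the 9508 tested genes with a window, 11.1% held a CHR, 37.0% a CCAAT box and 4.85% both, and over all 27305 windows the shares were 16.6%, 35.7% and 6.58%. Within 50 bases of the start, a window chosen after the values were seen, 24 of 41 members (58.5%) had a CHR, against 3.18% of tested genes. The motif was found in both called and uncalled genes. A CHR was present in 12 of 19 called genes with a window (63.2%) and 17 of 22 genes that were not called (77.3%), and this difference was not tested. CCNB1, CDC25B and KIF20A, 3 of the largest rises, had no CHR in the window. These matches describe letters in a window and not bound sites.

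Among the cyclins, CDK1 and their regulators, 4 of 9 genes rose, beside 13.7% of all tested genes called higher. Each function holds few genes, so a single call moves its share widely. The largest rises were in cyclin B1 and in CDC25B, the phosphatase that starts CDK1 activation. CDC25B stood at 16.4, 16.5 and 15.3 FPKM in IGF2BP1-NC and 25.5, 22.7 and 23 FPKM in IGF2BP1-KD (log2 fold change 0.55 ± 0.07 SE, adjusted p = 0.000327). CCNB1, one of the most abundant members, stood at 87.1, 100.1 and 91.2 FPKM in IGF2BP1-NC and 144, 140.2 and 124 FPKM in IGF2BP1-KD (log2 fold change 0.54 ± 0.08 SE, adjusted p = 0.000695). In both genes all 3 IGF2BP1-KD libraries lay above all 3 IGF2BP1-NC libraries, and IGF2BP1-KD library 3 was the lowest of its group for CCNB1. CCNA2, the cyclin of S phase and G2, stood at 94.1, 92.5 and 89.9 FPKM in IGF2BP1-NC and 112, 111 and 105 FPKM in IGF2BP1-KD (log2 fold change 0.24 ± 0.06 SE, adjusted p = 0.0101). CKS2, a small CDK-binding subunit, stood at 83.6, 103 and 98.2 FPKM in IGF2BP1-NC and 114, 118 and 110.2 FPKM in IGF2BP1-KD (log2 fold change 0.26 ± 0.09 SE, adjusted p = 0.0484). The CKS2 groups did not overlap either, but its call held only without IGF2BP1-NC library 2 when single libraries were left out, with an adjusted p of up to 0.153 by edgeR's quasi-likelihood test, and it was lost by DESeq2 (adjusted p = 0.054). The CCNA2 call was lost without IGF2BP1-KD library 2 (adjusted p = 0.0543 by the same edgeR test). CKS1B, the paralogue of CKS2 and the most abundant member of all 48, stood at 172, 173 and 158 FPKM in IGF2BP1-NC and 165, 160.2 and 153 FPKM in IGF2BP1-KD (log2 fold change -0.08 ± 0.06 SE, adjusted p = 0.346) and did not pass the test. The other 4 genes, CCNB2, CDK1, CDC25C and CDCA3, had log2 fold changes of 0.22, 0.09, 0.02 and 0.10 and were not called. CDK1 itself did not overlap between groups, with 63.4, 65.2 and 63.8 FPKM against 66.8, 70.8 and 68.2 (adjusted p = 0.277 by edgeR's quasi-likelihood test). The same separation upward was found in 22.4% of all tested genes.

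**Figure D1:**
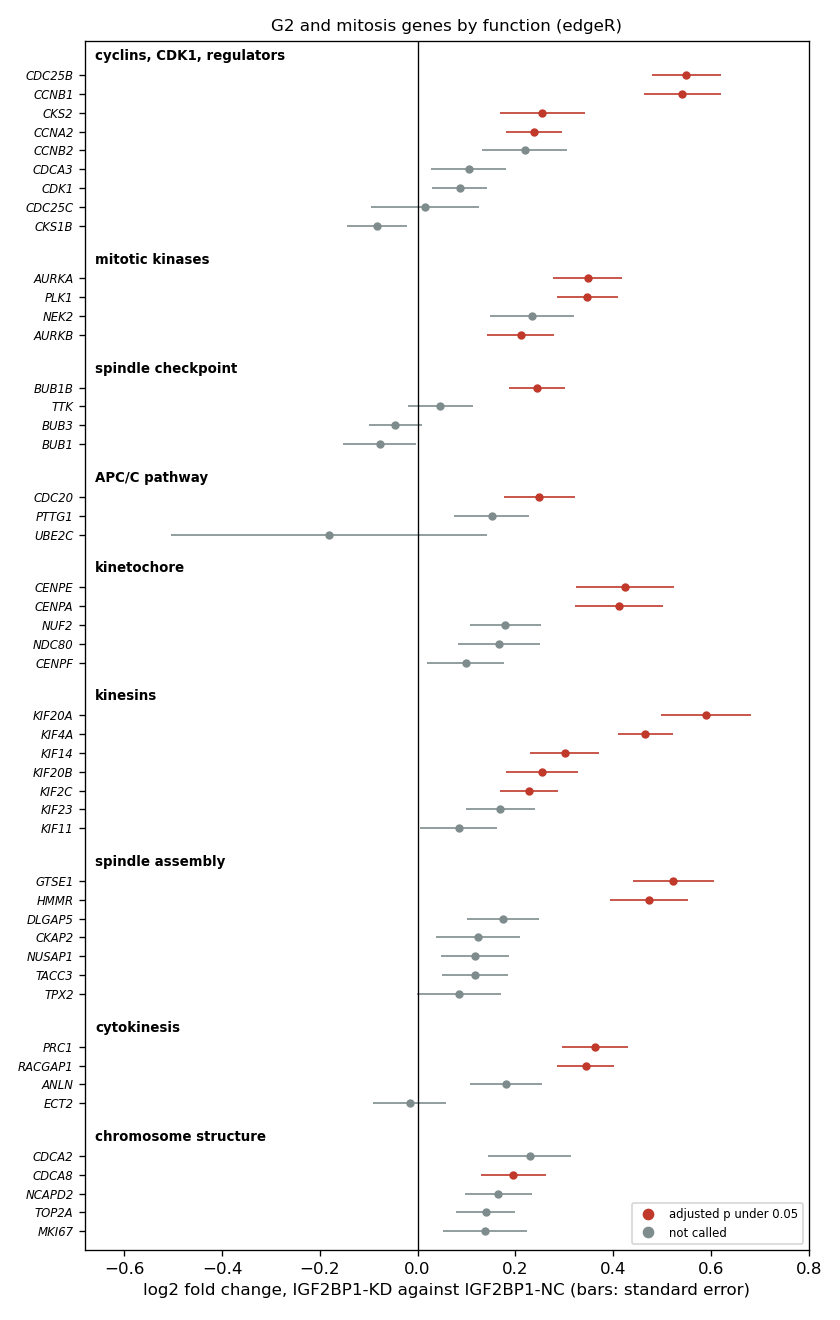
Log2 fold change (IGF2BP1-KD against IGF2BP1-NC) with its standard error for the 48 genes, grouped by function; red points had an adjusted p under 0.05 by edgeR. The 21 called genes all lie to the right of 0, between 0.20 and 0.59, and 5 uncalled genes lie to the left.

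The mitotic kinases rose in 3 of 4 genes, beside 13.7% of all tested genes called higher. PLK1, which drives centrosome maturation and spindle assembly, stood at 89.1, 90.03 and 90.01 FPKM in IGF2BP1-NC and 121, 116 and 107 FPKM in IGF2BP1-KD (log2 fold change 0.35 ± 0.06 SE, adjusted p = 0.00242), and was the most abundant of the kinases. AURKA, the spindle pole kinase, stood at 38.3, 34.2 and 34.7 FPKM in IGF2BP1-NC and 48.5, 46.6 and 42.3 FPKM in IGF2BP1-KD (log2 fold change 0.35 ± 0.07 SE, adjusted p = 0.00437). Both kinases were separated between the groups in all libraries, and both were lowest within IGF2BP1-KD in library 3. AURKB, the kinase of the chromosomal passenger complex, stood at 41.5, 43.2 and 37.9 FPKM in IGF2BP1-NC and 47.7, 46.9 and 48.3 FPKM in IGF2BP1-KD (log2 fold change 0.21 ± 0.07 SE, adjusted p = 0.0401). The 3 IGF2BP1-KD libraries had a standard deviation of only 0.733 FPKM, but the call was lost without IGF2BP1-NC library 3 and without each IGF2BP1-KD library in turn (adjusted p up to 0.128 by edgeR's quasi-likelihood test), and also by DESeq2 (adjusted p = 0.0587) and without the filter on low counts (adjusted p = 0.0542). NEK2, a centrosome kinase, had a log2 fold change of 0.23 ± 0.09 SE that was not called (adjusted p = 0.0623). NEK2 libraries of the groups overlapped, IGF2BP1-KD library 3 being below IGF2BP1-NC library 1.

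In the spindle checkpoint and the APC/C pathway, 2 of 7 genes rose, beside 13.7% of all tested genes called higher. BUB1B, which encodes the checkpoint protein BUBR1, stood at 38.9, 37.7 and 39.5 FPKM in IGF2BP1-NC and 46.4, 47.6 and 44.7 FPKM in IGF2BP1-KD (log2 fold change 0.24 ± 0.06 SE, adjusted p = 0.00937). CDC20, the APC/C activator, stood at 82.8, 89.6 and 85.2 FPKM in IGF2BP1-NC and 109, 106 and 93.8 FPKM in IGF2BP1-KD (log2 fold change 0.25 ± 0.07 SE, adjusted p = 0.0241). Neither gene overlapped between the groups. The BUB1B call was lost without IGF2BP1-KD library 2 (adjusted p = 0.0528), and the CDC20 call without library 3 of IGF2BP1-NC and without libraries 1 or 2 of IGF2BP1-KD (adjusted p up to 0.101), both by edgeR's quasi-likelihood test. BUB3, the most abundant checkpoint gene, stood at 77.7, 74.2 and 74.7 FPKM in IGF2BP1-NC and 73, 75.4 and 72.7 FPKM in IGF2BP1-KD (log2 fold change -0.05 ± 0.05 SE, adjusted p = 0.563), with overlapping groups. BUB1 and TTK, the checkpoint kinases, had log2 fold changes of -0.08 and 0.05, and PTTG1, which encodes securin, 0.15. UBE2C, the E2 enzyme of the APC/C, had the lowest values of the members, at 0.612 to 1.01 FPKM from 13 to 23 counts a library. A fold change could not be resolved from so few counts (log2 fold change -0.18 ± 0.32 SE).

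Kinetochore genes rose in 2 of 5, beside 13.7% of all tested genes called higher. CENPA, the histone H3 variant that marks the centromere, stood at 20.9, 22.6 and 20.02 FPKM in IGF2BP1-NC and 29.5, 30.05 and 25.6 FPKM in IGF2BP1-KD (log2 fold change 0.41 ± 0.09 SE, adjusted p = 0.00663). CENPE, a kinetochore motor that moves chromosomes to the spindle equator, stood at 12, 9.32 and 10.8 FPKM in IGF2BP1-NC and 15.2, 15.6 and 12.7 FPKM in IGF2BP1-KD (log2 fold change 0.42 ± 0.10 SE, adjusted p = 0.0115). The groups of both genes were apart, with IGF2BP1-KD library 3 lowest in its group. The outer kinetochore genes NDC80 and NUF2 and the large protein gene CENPF were not called, at log2 fold changes of 0.17, 0.18 and 0.10. NUF2 did not overlap between the groups, a separation upward found in 22.4% of all tested genes. NDC80, the most abundant of the 5, stood at 47.9, 39 and 38.3 FPKM in IGF2BP1-NC and 48.4, 48.9 and 44.2 FPKM in IGF2BP1-KD, with IGF2BP1-NC library 1 above IGF2BP1-KD library 3.

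The kinesins held the largest rise of all 48 genes. KIF20A, a motor needed for cytokinesis, stood at 24.8, 20.6 and 22.7 FPKM in IGF2BP1-NC and 37.8, 35.2 and 30.2 FPKM in IGF2BP1-KD (log2 fold change 0.59 ± 0.09 SE, adjusted p = 0.0012), a 1.5-fold difference. KIF4A, which shortens the central spindle and has the smallest adjusted p of the members, stood at 26.1, 25.9 and 26.7 FPKM in IGF2BP1-NC and 37.3, 36.6 and 35.6 FPKM in IGF2BP1-KD (log2 fold change 0.47 ± 0.06 SE, adjusted p = 0.00025). In KIF4A the libraries within each group differed by little, with standard deviations of 0.392 and 0.822 FPKM. KIF14, another cytokinesis motor, stood at 12.1, 10.6 and 11.2 FPKM in IGF2BP1-NC and 14, 14.9 and 13.2 FPKM in IGF2BP1-KD (log2 fold change 0.30 ± 0.07 SE, adjusted p = 0.00924). KIF20B stood at 11.8, 10.4 and 10.7 FPKM in IGF2BP1-NC and 13.5, 13.7 and 12.3 FPKM in IGF2BP1-KD (log2 fold change 0.25 ± 0.07 SE, adjusted p = 0.0237). KIF2C, a kinesin that takes microtubules apart at the centromere, stood at 101, 90.3 and 89.4 FPKM in IGF2BP1-NC and 110.4, 109 and 111 FPKM in IGF2BP1-KD (log2 fold change 0.23 ± 0.06 SE, adjusted p = 0.0156). These were 5 of 7 kinesins, beside 13.7% of all tested genes called higher. Like all 21 called genes, the 5 were higher in every IGF2BP1-KD library than in every IGF2BP1-NC library. The KIF14 call was lost without IGF2BP1-KD library 2, and the KIF20B and KIF2C calls without any one of IGF2BP1-NC libraries 2 and 3 and IGF2BP1-KD libraries 1 and 2, with adjusted p up to 0.0982 and 0.0574 by edgeR's quasi-likelihood test. KIF11, the bipolar spindle motor, and KIF23, a centralspindlin motor, were not called, at 0.08 and 0.17.

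**Figure D2:**
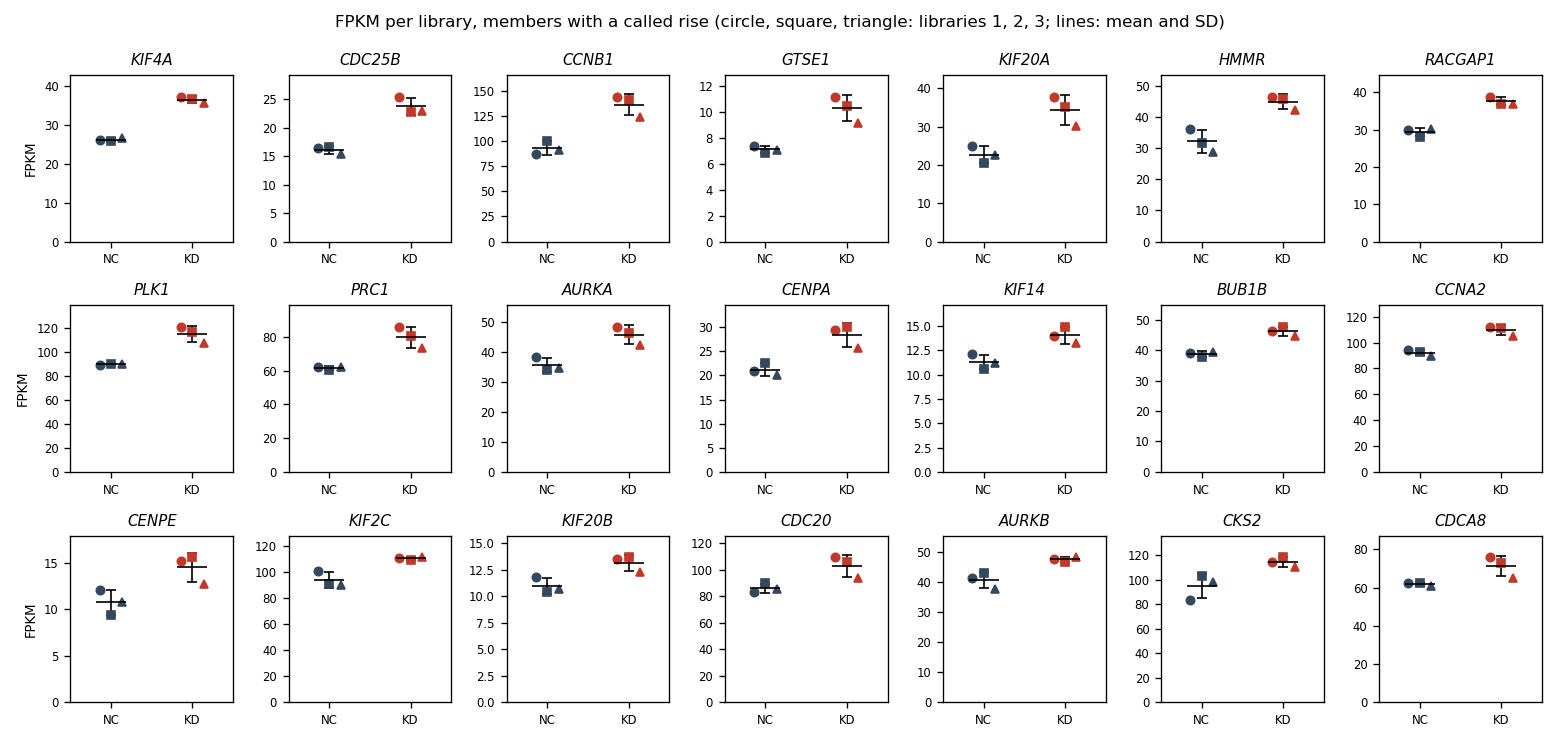
FPKM of the 21 genes with a called rise, each library a point (circle, square and triangle for libraries 1, 2 and 3) with the mean and standard deviation of 3 libraries, ordered by adjusted p; axes start at 0. In each panel the 3 IGF2BP1-KD points lie above the 3 IGF2BP1-NC points, which goes with the call that chose these genes and is not separate support.

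Of 7 spindle assembly genes, 2 rose, beside 13.7% of all tested genes called higher. HMMR, a microtubule-binding protein of the spindle pole, stood at 36.2, 31.5 and 28.7 FPKM in IGF2BP1-NC and 46.6, 45.9 and 42.3 FPKM in IGF2BP1-KD (log2 fold change 0.47 ± 0.08 SE, adjusted p = 0.00171). GTSE1, a microtubule-stabilising protein that also restrains p53, stood at 7.39, 6.82 and 7.06 FPKM in IGF2BP1-NC and 11.2, 10.4 and 9.16 FPKM in IGF2BP1-KD (log2 fold change 0.52 ± 0.08 SE, adjusted p = 0.00113). GTSE1 was among the least abundant members, and the groups of both genes were apart. TPX2, the activator of Aurora A and the most abundant of these genes, stood at 144, 111 and 115 FPKM in IGF2BP1-NC and 133, 135 and 127 FPKM in IGF2BP1-KD (log2 fold change 0.09 ± 0.09 SE, adjusted p = 0.492), with IGF2BP1-NC library 1 the highest of all 6. TACC3, NUSAP1, DLGAP5 and CKAP2, which organise spindle microtubules, were not called, with log2 fold changes of 0.12, 0.12, 0.18 and 0.12.

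Cytokinesis genes rose in 2 of 4, beside 13.7% of all tested genes called higher. PRC1, which bundles microtubules of the central spindle, stood at 62.4, 60.2 and 62.4 FPKM in IGF2BP1-NC and 85.9, 80.3 and 73.5 FPKM in IGF2BP1-KD (log2 fold change 0.36 ± 0.07 SE, adjusted p = 0.00289). RACGAP1, the GTPase-activating partner of KIF23 in centralspindlin, stood at 29.9, 28.1 and 30.2 FPKM in IGF2BP1-NC and 38.9, 36.9 and 37 FPKM in IGF2BP1-KD (log2 fold change 0.34 ± 0.06 SE, adjusted p = 0.00182). Both genes were apart between the groups in all libraries. ANLN, a scaffold of the contractile ring, was not called at 0.18, and ECT2, the activator of RHOA, was not called at -0.02.

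Of 5 chromosome structure genes 1 rose, beside the 13.7% of all tested genes called higher. CDCA8, which encodes the passenger protein borealin, stood at 62.2, 62.5 and 60.8 FPKM in IGF2BP1-NC and 75.8, 72.9 and 65.3 FPKM in IGF2BP1-KD (log2 fold change 0.20 ± 0.07 SE, adjusted p = 0.0486). This was the weakest of the 21 calls. It was lost by DESeq2, limma-voom and the fit without a filter on low counts, and without any one of IGF2BP1-NC libraries 2 and 3 and IGF2BP1-KD libraries 1 and 2 (adjusted p up to 0.182 by edgeR's quasi-likelihood test). TOP2A, the mitotic topoisomerase and the most abundant of these genes, stood at 108, 99 and 96.2 FPKM in IGF2BP1-NC and 111, 116 and 109 FPKM in IGF2BP1-KD (log2 fold change 0.14 ± 0.06 SE, adjusted p = 0.107), without overlap between the groups. NCAPD2 (a condensin subunit) and MKI67 (the proliferation antigen Ki-67) had log2 fold changes of 0.17 and 0.14, and CDCA2 (a PP1-binding chromatin protein) 0.23, none of them called. NCAPD2, like TOP2A, did not overlap between the groups, a separation upward found in 22.4% of all tested genes.

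IGF2BP1-KD library 3 was the lowest of its group for 39 of the 48 genes. The median difference of the 48 genes from the IGF2BP1-NC mean was 0.234, 0.233 and 0.088 on the log2 CPM scale in IGF2BP1-KD libraries 1, 2 and 3, and 0.037, -0.025 and -0.011 in the 3 IGF2BP1-NC libraries. The members took 0.848%, 0.844% and 0.782% of all counts in the IGF2BP1-KD libraries, against 0.745%, 0.688% and 0.704% in IGF2BP1-NC. The myeloid markers summed to 198, 223 and 496 CPM in IGF2BP1-KD libraries 1, 2 and 3, and to 37.0, 38.0 and 27.4 CPM in IGF2BP1-NC. PRG2, an eosinophil granule gene among these markers, stood at 3.93, 6.5 and 4.51 FPKM in IGF2BP1-NC and 53.3, 63.1 and 149.7 FPKM in IGF2BP1-KD. A link between these markers and the mitosis genes was not tested. Without IGF2BP1-KD library 3, 23 members were called higher and the median log2 fold change was 0.222. Without IGF2BP1-KD library 2, the count was 12 and the median 0.164.

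**Figure D3:**
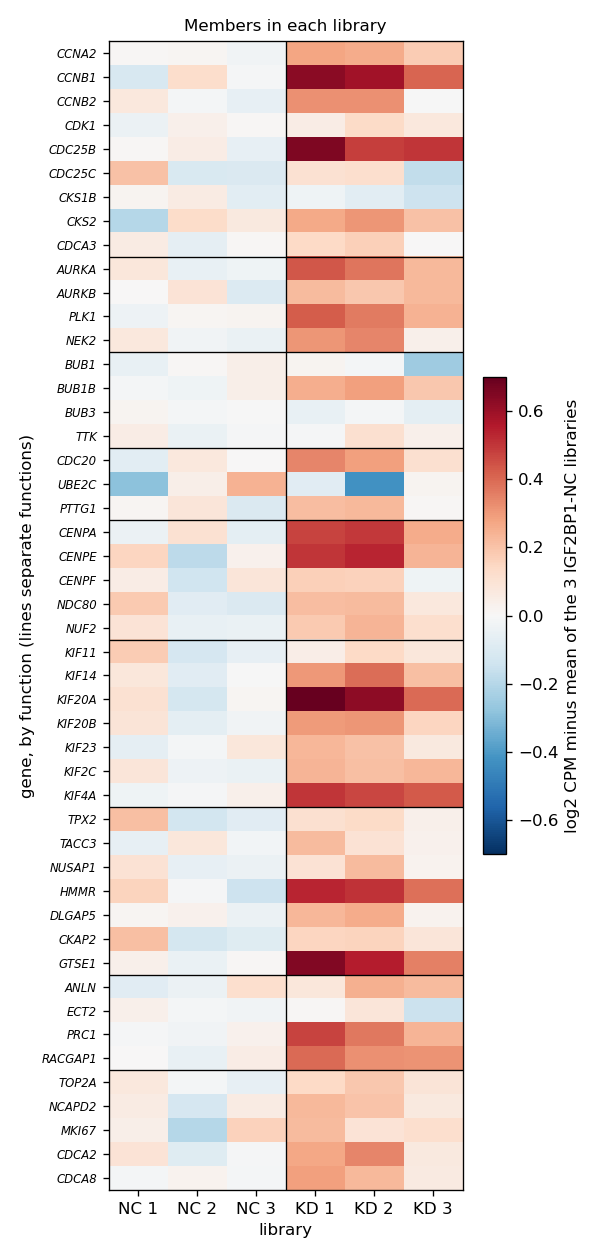
Log2 CPM of the 48 genes minus the mean of the 3 IGF2BP1-NC libraries, in each of the 6 libraries, with genes ordered by function. Most rows are red in IGF2BP1-KD libraries 1 and 2 and paler in library 3, the lowest of its group for 39 genes.

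Related genes were also compared as ratios within a library, which no scaling between libraries can change. The 8 pairs were chosen after the values were seen, and so the ratios are given with no test. Most of them set a called gene over an uncalled one, so their separation goes with that call and is not separate support. How often other gene pairs separate in this way was not counted. The FPKM ratio of CCNB1 to CCNB2 was 0.966, 1.21 and 1.14 in IGF2BP1-NC and 1.36, 1.32 and 1.46 in IGF2BP1-KD. For the CDC25 phosphatases the ratio of CDC25B to CDC25C went from a mean of 1.26 ± 0.158 to 1.82 ± 0.191 (SD, n = 3). Likewise without overlap between the groups, the ratio of CKS2 to CKS1B went from 0.568 ± 0.0728 to 0.717 ± 0.0219, that of BUB1B to BUB1 from 0.775 ± 0.0191 to 0.973 ± 0.072 and that of KIF20A to KIF20B from 2.07 ± 0.0712 to 2.61 ± 0.171. The 2 partners of centralspindlin, RACGAP1 and KIF23, had a ratio of 1.34 ± 0.0549 in IGF2BP1-NC and 1.51 ± 0.0711 in IGF2BP1-KD. NUF2 and NDC80, partners in 1 complex, had ratios of 0.542 ± 0.0275 and 0.545 ± 0.0138, and AURKA to AURKB ran from 0.791 to 0.923 in IGF2BP1-NC and from 0.875 to 1.02 in IGF2BP1-KD, with overlap.

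Other mitosis genes did not move as a block. Of 122 further genes of mitotic entry, APC/C, kinetochore, checkpoint, passenger complex, condensin, cohesin, spindle and cytokinesis, 23 were higher (18.9%) and 14 lower (11.5%), near the 13.7% and 14.5% of all tested genes, with a median log2 fold change of 0.009. The largest rises were in ANAPC16 (an APC/C subunit, 0.50), CENPP (a centromere protein, 0.46) and CIT (citron kinase of cytokinesis, 0.43). The largest falls were in ARPP19 (an inhibitor of the phosphatase PP2A-B55, -0.89), RHOA (the GTPase of the contractile ring, -0.87) and ANAPC15 (an APC/C subunit, -0.54). RHOA stood at 157, 164 and 159.6 FPKM in IGF2BP1-NC and 87.9, 93.2 and 84 FPKM in IGF2BP1-KD, and ARPP19 at 25.9, 24.8 and 25 FPKM in IGF2BP1-NC and 13.3, 13.5 and 14.4 FPKM in IGF2BP1-KD. Without IGF2BP1-KD library 2, the count of higher genes was 5, without IGF2BP1-KD library 1 it was 7 and without IGF2BP1-NC library 2 it was 13. Fewer of all tested genes were called higher in these fits too. The share of the list called higher was below that of all tested genes without IGF2BP1-KD library 1 or 2. It was slightly above that share without IGF2BP1-NC library 2. The 14 falls became 6, 7, 7, 9 and 9 without IGF2BP1-KD library 3, IGF2BP1-NC library 2, IGF2BP1-KD library 1, IGF2BP1-NC library 3 and IGF2BP1-KD library 2.

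Of the regulators that act on the CHR, FOXM1, the factor that activates G2 genes, stood at 21.9, 21.8 and 25.4 FPKM in IGF2BP1-NC and 28.7, 27.7 and 26.2 FPKM in IGF2BP1-KD (log2 fold change 0.24 ± 0.08 SE, adjusted p = 0.0382). LIN54, the MuvB subunit that binds the CHR, stood at 6.96, 6.73 and 7.42 FPKM in IGF2BP1-NC and 8.11, 8.12 and 8.42 FPKM in IGF2BP1-KD (log2 fold change 0.21 ± 0.07 SE, adjusted p = 0.0451). MYBL2, the B-MYB factor, stood at 116, 118 and 125 FPKM in IGF2BP1-NC and 119, 116 and 121 FPKM in IGF2BP1-KD (log2 fold change -0.02 ± 0.06 SE, adjusted p = 0.817). MYBL2 overlapped between the groups. LIN54 was the only called gene of the 5 MuvB genes in the list. The other 4, named after their values were seen, had log2 fold changes of 0.11 (LIN9), -0.09 (LIN37), -0.07 (LIN52) and 0.01 (RBBP4). E2F4, the E2F factor of DREAM and also named after its value was seen, was called higher. Its log2 fold change was 0.28 ± 0.08 SE (adjusted p = 0.024), and its call was not followed across the alternatives. The NF-Y genes were not called, at -0.05 (NFYA), 0.13 (NFYB) and -0.05 (NFYC). The FOXM1 call was lost without libraries 1 or 2 of either group (adjusted p up to 0.128), and the LIN54 call without every library but IGF2BP1-NC library 3 (adjusted p up to 0.126), by edgeR's quasi-likelihood test. LIN54 was also lost by DESeq2 (adjusted p = 0.0884) and without the filter on low counts (adjusted p = 0.0709).

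DNA replication genes, which are expressed earlier in the cycle, held more called falls than rises. Of 52 such genes, 2 were higher (3.85%, GINS4 and PRIM1) and 11 lower (21.2%), against 13.7% and 14.5% of all tested genes and 17.1% lower among the well expressed ones. Their median log2 fold change was -0.093, with the GINS4 call lost without each library in turn (adjusted p from 0.0517 to 0.12 by edgeR's quasi-likelihood test) and the PRIM1 call without libraries 2 or 3 of either group (up to 0.124). The 3 largest falls were in CHAF1B, the chromatin assembly subunit (-0.43), POLD1, the catalytic subunit of DNA polymerase delta (-0.41), and LIG1, the replicative DNA ligase (-0.39). A CHR was found in 2 of the 44 replication promoters with a window (4.55%) and in 44 of the 108 other mitosis promoters (40.7%).

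**Figure D4:**
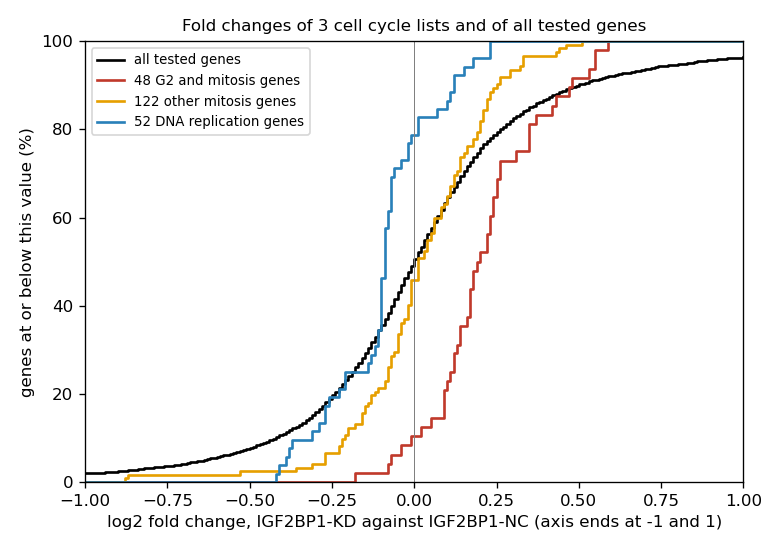
Share of genes (vertical axis, percent) at or below each log2 fold change (horizontal axis) for the 48 G2 and mitosis genes, 122 other mitosis genes, 52 DNA replication genes and all 11994 tested genes. The 48 genes lie to the right (median 0.19), the replication genes to the left (median -0.093), and the other mitosis genes close to all tested genes (medians 0.009 and -0.005).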

How the data were processed

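RNA from 3 IGF2BP1-NC and 3 IGF2BP1-KD libraries of cells labelled NCI-H929 was prepared by the authors with a stranded mRNA kit. Per the submitters' processing notes and methods, reads were trimmed with Trimmomatic and mapped to GRCh38 with HISAT2. The deposited counts are raw whole numbers from HTSeq. The deposited FPKM values, which the authors describe as from Cufflinks, equal the counts divided by gene length and library total (median deviation 6.23e-09%). Tool versions, the strand setting and the annotation release are not given in the sources used here. Reads on overlapping or near-identical genes therefore have an unknown assignment, and 8 of the 21 called genes overlap another protein-coding gene in GENCODE release 44 (GRCh38), among them KIF4A, KIF20A, PLK1 and BUB1B.

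Testing of the counts used edgeR 4.0.16 under R 4.3.3, with low counts removed by filterByExpr, TMM scaling and a robust two-sided quasi-likelihood fit, and a gene was called at a Benjamini-Hochberg adjusted p under 0.05 over the 11994 genes tested. Every adjusted p in the text is from this fit unless another tool is named. Alternatives used DESeq2 1.42.0, limma 3.58.1 (voom, and log2 of FPKM plus 1 or 0.1 for genes with a mean of at least 1), other scalings and filters, a replicate block, and leaving out each library. Scripts were tested on simulated data. Figures and motif searches used Python 3.11.15 and matplotlib 3.10.9. Total counts of 16885449 to 18112179 a library set the precision of low genes, a limit that covers counting error alone.

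The 48 genes and the gene lists were chosen with earlier results of these data known. Values in every library are given for each called member and for the most abundant member of each function, and for FOXM1, MYBL2, LIN54 and IGF2BP1. From the 2 comparison lists the 3 largest called rises and falls are named (for replication there were 2 rises). The log2 CPM limit of 5, the 8 ratio pairs and the 50-base CHR window were chosen after the values were seen.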

Additional observations from a re-analysis of the deposited data

How the results depend on the processing

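Of the 21 called rises, 12 held in all 15 alternatives (CCNB1, CDC25B, AURKA, PLK1, CENPA, CENPE, KIF20A, KIF4A, HMMR, GTSE1, PRC1 and RACGAP1), and no called member changed sign. Members called higher numbered 12 to 29 when each library was left out in turn (12 without IGF2BP1-KD library 2, 29 without IGF2BP1-NC library 1) and 18 (DESeq2) to 26 (upper-quartile factors) otherwise, and each alternative called 0 lower. Of 27 uncalled members, 13 gained a call in some alternative. Leaving out single libraries gave 5 to 24 higher and 6 to 16 lower among the other mitosis genes, and 0 to 1 higher among the replication genes, where DESeq2 gave 1. Same-numbered libraries did not deviate together (r from -0.106 to 0.036 over genes), so the numbers were not taken as pairs. With a replicate block, 19 members were higher, with 12 higher among other mitosis genes and 1 among replication genes, beside 1413 of 11994 tested genes. The AURKB, CDCA8, FOXM1, LIN54 and PRIM1 calls were lost with this block. Estimates near 0 turned sign as single libraries were left out, from -0.038 to 0.127 for CDC25C, -0.124 to 0.003 for BUB1, -0.069 to 0.048 for ECT2, -0.052 to 0.018 for MYBL2, -0.16 to 0.033 for LIN52 and -0.001 to 0.032 for RBBP4, and from -0.033 to 0.037 for the log2 ratio difference of NUF2 to NDC80, which was added after the data were seen. Upper-quartile factors turned ECT2 to 0.014 and MYBL2 to 0.01. Causes were not tested. The 13 to 23 counts a library limit the precision for UBE2C, and why they are so few was not tested.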
